A study of Mus musculus with 8 samples.

Results

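The cryptdins are the alpha-defensins of the mouse small intestine, and 9 genes of this family were described: Defcr3, Defcr4, Defcr5, Defcr6, Defcr20, Defcr21 and Defcr22, called cryptdins here, and Defcr-rs2 and Defcr-rs10, called cryptdin-related. Defcr is the older form of the current symbol Defa. Members were chosen by name, as every array probe that the files label with 1 of these 9 symbols, and the symbols were selected with the ratios of these same arrays already known, so the members' ratios are given as a description, without a test. Of the 9 genes, 8 had a probe among the 27573 gene names of the array, and Defcr5 had none. Together they had 10 of 41174 probes, 7 for the cryptdins, of which 2 lie in Defcr3, and 3 for the cryptdin-related genes, of which 2 lie in Defcr-rs2.

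Paneth cells sit at the base of the small intestinal crypts between the Lgr5+ stem cells. They store cryptdins as precursors in secretory granules, where the protease matrilysin (Mmp7) cleaves them to short cationic peptides that kill bacteria by damaging their membranes. The cryptdin-related genes share the signal and pro sequences of the family and differ in the cysteine pattern of the mature peptide. The genes stand in a cluster of near-identical copies whose gene content is known to differ between mouse strains, and their expression in Paneth cells is known to need Wnt signalling through TCF factors.

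RNA was measured on 8 two-colour arrays in 4 RNA pairs, each pair hybridised to 2 arrays with the dyes swapped. In 2 pairs, sort 1 and sort 2, cells with high GFP (GFPhi) were set against cells with low GFP (GFPlo) from the gut of Lgr5-EGFP-ires-CreERT2 mice, in which the Lgr5 promoter drives GFP, with 3 mice pooled per sort. In the other pairs, 1 for day 3 and 1 for day 5 after induction, small intestinal epithelium of Ah-Cre/Ascl2 floxed/floxed mice (deleted) was set against that of Ah-Cre/Ascl2 floxed/wt mice (control), so that both groups carried the Ah-Cre transgene, which is driven by an inducible Cyp1a1 promoter, and at least 1 floxed allele, although some labels call the control wildtype. Ascl2 encodes a transcription factor of the crypt base stem cells. Strain, age and the number of animals behind each deletion pair are not given in the sources used here. The arrays of a pair share both RNA extracts and count as 1 replicate, so each sort comparison had n = 2 RNA pairs and each day had n = 1, and spread between the arrays of a pair is technical. In epithelium, fewer Paneth cells and less RNA per Paneth cell cannot be told apart.

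Upstream sequences were found for 3 members, Defa20, Defa21 and Defa22, these being the 3 of the 9 members that were matched by symbol to RefSeq's promoter table. The 250 bases before the start were taken from RefSeq on build GRCm38.p6, plus strand, and stand at chr8:21509008-21509257 for Defa20, chr8:21025295-21025544 for Defa21 and chr8:21162027-21162276 for Defa22. Defa21 and Defa22 were identical over all 250 bases, and Defa20 differed from both at 5 positions (98% identity). Only the sequences of Defa20 and Defa21 are therefore printed. Capitals mark the TCF/LEF core CTTTGA, its variant that ends in T (CTTTGT), and, for the TATA box, the motif TATAAA. All were searched on both strands and did not overlap, and each TCF/LEF core found lay on the minus strand, so that it appears as its reverse complement.
Defa20: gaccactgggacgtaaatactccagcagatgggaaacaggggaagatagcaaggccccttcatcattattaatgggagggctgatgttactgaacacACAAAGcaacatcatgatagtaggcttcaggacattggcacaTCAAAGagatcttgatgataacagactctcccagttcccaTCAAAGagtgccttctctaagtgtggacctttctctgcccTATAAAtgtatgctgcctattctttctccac
Defa21: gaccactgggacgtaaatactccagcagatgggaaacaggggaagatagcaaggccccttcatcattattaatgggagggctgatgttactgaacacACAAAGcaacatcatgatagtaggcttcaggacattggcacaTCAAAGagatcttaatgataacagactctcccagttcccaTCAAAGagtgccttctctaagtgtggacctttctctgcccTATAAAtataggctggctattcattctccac
Each window held 3 TCF/LEF cores, the first bases of which lie 153, 111 and 71 bases before the start, and 1 TATAAA at 31 bases before it. Of 32851 promoter windows of the same length, 27.6% held at least 1 TCF/LEF core, 0.776% held 3 or more and 12.4% held TATAAA. An E-box that basic helix-loop-helix factors such as Ascl2 can bind, CAGCTG, was present in 13.0% of all windows and in 0 of the 3 member windows. The 3 are near-identical and do not count as 3 separate sequences beside any of these shares. A match is a description of letters and not a binding site.

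Several probes cannot be given to 1 gene. In mouse build mm8 (NCBI36) the probes lie at chr8:22974932-22974991 (Defcr20), chr8:22521076-22521135 (Defcr21), chr8:22657128-22657187 (Defcr22), chr8:22782305-22782364 (Defcr3, probe 1), chr8:22782205-22782265 (Defcr3, probe 2), chr8:22559925-22559984 (Defcr4) and chr8:23200234-23200852 (Defcr6), the last over a span of 619 bases for a probe of 60 bases. The files give no position for the Defcr-rs2 and Defcr-rs10 probes, and name no exon or other part of a gene. Each of these probes lists 1 RefSeq transcript, which was not matched to a current gene. The Defcr4 and Defcr6 probes and probe 2 of Defcr3 also list a transcript that was not matched. The Defcr21 probe also lists a transcript that RefSeq names Defa22, the Defcr22 probe lists one of Defa29, the Defcr4 probe lists those of Defa5 and Defa22, the Defcr6 probe lists one of Defa24, and probe 2 of Defcr3 lists those of Defa23 and Defa29. Values are therefore given per probe, and a probe's reading may hold RNA of several copies.

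Ascl2 itself, as a check of the labels, was at a log2 ratio of -1.33 on day 3 and -1.32 on day 5 in deleted over control, and Lgr5 was at 2.10 and 1.61 in GFPhi over GFPlo, both with 1 sign on all 4 arrays. The share of probes well above background per channel ran from 54.6% to 66.4% in the deletion comparison and from 35.1% to 44.5% among the sorted cells. Precision is limited by the small number of arrays. No member spot was saturated, and the brightest reached 81.7% of the scanner's limit.

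On day 3 every member probe read lower in the Ascl2-deleted epithelium. The ratio was below 0 on both arrays for 10 of 10 member probes, against 40.5% of all 23091 probes above background, and the median over the 10 probes was -1.41, against -0.0074 over all probes above background. Among the members, 3 of 10 were at least 2-fold lower on each of the arrays, against 1.43% of all probes. These 3 were the cryptdin-related probes.

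The cryptdin-related probes had the lowest mean ratios on day 3, and their arrays lay close together. Defcr-rs10 was at log2 ratios of -2.03 with deleted RNA in Cy3 and -1.94 with deleted RNA in Cy5. Probe 1 of Defcr-rs2 was at -1.67 and -1.99 in the same order, and probe 2 was at -1.98 and -2.06. Their means were -1.98, -1.83 and -2.02, or 3.96-fold, 3.55-fold and 4.06-fold lower. The processed signal of the scanner, an intensity on a linear scale, was 25211 in control and 6287 in deleted for Defcr-rs10, 51284 and 13487 for probe 1 of Defcr-rs2, and 57599 and 14081 for probe 2.

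The 7 cryptdin probes had a median of -1.39 on day 3 with a range from -1.66 to -1.12, or 3.16-fold to 2.17-fold lower. Defcr20 was at -2.14 with deleted RNA in Cy3 and -0.66 with deleted RNA in Cy5, with a mean of -1.40. Defcr21 was at -1.86 and -0.91, and Defcr22 at -1.26 and -0.98. All 6 of these ratios were below 0, and the array with deleted RNA in Cy3 gave the lower one each time. The same order held for Defcr3, a classical cryptdin whose probe 1 was at -2.48 and -0.84 and whose probe 2 was at -1.94 and -0.91. Defcr4, cryptdin-4, known for its strong bactericidal activity, was at -1.61 and -0.76. Defcr6 was at -2.03 and -0.72. The 2 probes of Defcr3 had means of -1.66 and -1.43, a difference smaller than the gap between the dyes for either of them. For each of the 7 probes the mean was larger in size than the SD between dyes, which ran from 0.20 for Defcr22 to 1.16 for probe 1 of Defcr3.

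**Figure D1:**
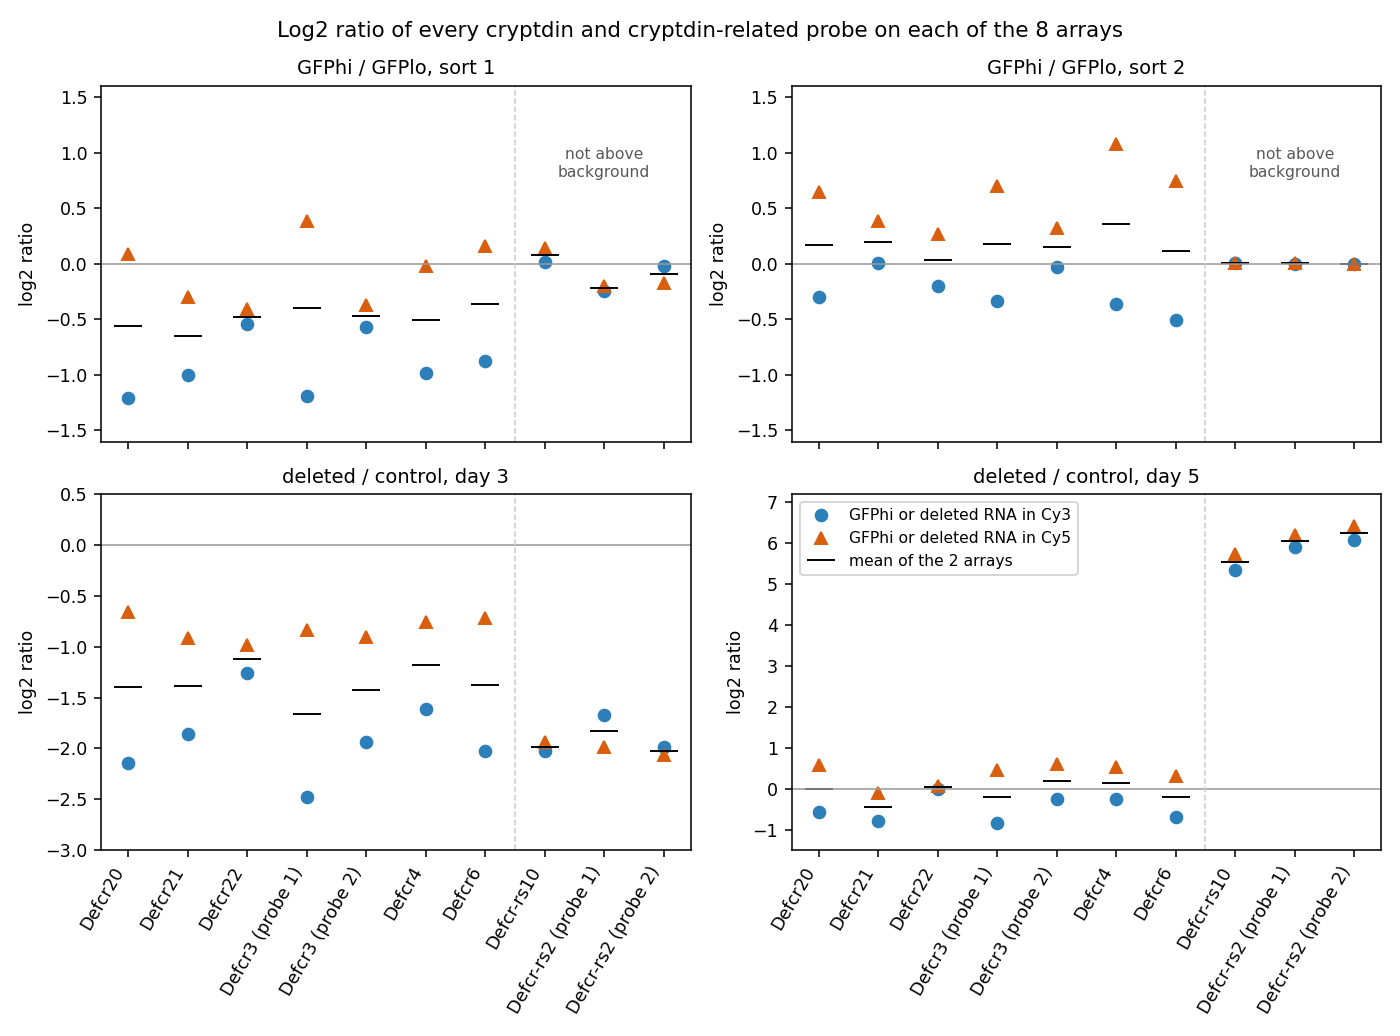
Log2 ratios (y axis) of the 10 member probes (x axis) on each of the 8 arrays, by RNA pair; circles have GFPhi or deleted RNA in Cy3, triangles in Cy5, and bars are the mean of both arrays. On day 3 all points lie below 0, and on day 5 the 3 cryptdin-related probes lie at means of 5.54 to 6.25 while the cryptdin probes lie between -0.45 and 0.18.

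On day 5 the cryptdins parted from Defcr-rs2 and Defcr-rs10, the cryptdin-related members. The 3 cryptdin-related probes were higher in the deleted epithelium at log2 ratios of 5.74 and 5.34 for Defcr-rs10 (deleted RNA in Cy5, then in Cy3), 6.20 and 5.92 for probe 1 of Defcr-rs2 and 6.43 and 6.08 for probe 2. Their means of 5.54, 6.06 and 6.25 are 46.6-fold, 66.6-fold and 76.4-fold, and the scanner's own processed signals gave 65.6-fold, 79.8-fold and 103-fold. At least 2-fold higher on both day 5 arrays were 3 of 10 member probes, the same 3, against 0.901% of all probes above background. Over all 23113 probes above background, 11 had a day 5 log2 ratio of at least 4 in either direction, and the 3 cryptdin-related probes held the 3 highest of these values.

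The cryptdin probes read near equal in deleted and control RNA on day 5. Their median was -0.0045, or -0.35 with median centring in place of loess, with a range from -0.45 for Defcr21 to 0.18 for probe 2 of Defcr3. Defcr20 was at 0.57 with deleted RNA in Cy5 and -0.58 with deleted RNA in Cy3, and the sign also turned with the dye for both probes of Defcr3 (0.47 and -0.85 for probe 1, 0.61 and -0.25 for probe 2), for Defcr4 (0.52 and -0.26) and for Defcr6 (0.30 and -0.70). Defcr22, the cryptdin probe with the closest agreement between dyes, was at 0.07 and -0.01. Defcr21 alone of the 7 had 1 sign on both arrays, at -0.10 and -0.80. For each of the 7 the mean was smaller in size than the SD between dyes, which ran from 0.05 for Defcr22 to 0.93 for probe 1 of Defcr3.

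For the cryptdin-related probes the difference between the days lay mostly in the control RNA. The processed signal of Defcr-rs10 was 25211 in control and 6287 in deleted on day 3, and 212 in control and 13700 in deleted on day 5. Probe 1 of Defcr-rs2 read 327.5 in the day 5 control and 26000 in the day 5 deleted RNA, and probe 2 read 244.5 and 24900. All of these signals were well above background on both arrays. Among the 4 RNAs of the deletion comparison the low readings were those of the day 5 control. The lowest day 3 control reading on any array for these probes was 24828. These signals were not scaled between the days, and over all probes above background their median log2 change from day 3 to day 5 was -1.04 in control.

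**Figure D2:**
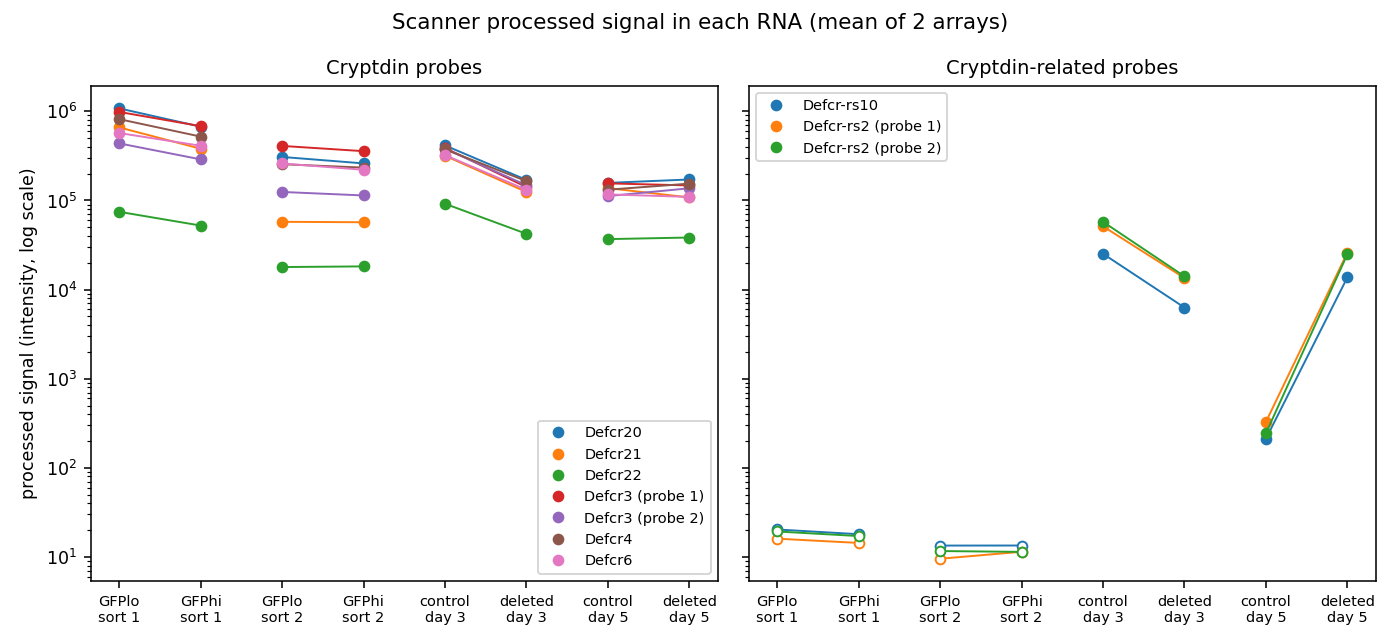
Processed signal of the scanner (y axis, log scale, mean of 2 arrays) in each of the 8 RNAs (x axis) for the 7 cryptdin probes and the 3 cryptdin-related probes; lines join the RNAs of a pair and open circles were not well above background. The cryptdin-related probes read 212 to 327.5 in the day 5 control, against 25211 to 57599 in the day 3 control.

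With levels normalised between arrays, the control RNA of day 5 less that of day 3 was at log2 differences of -5.00 for Defcr-rs10, -5.65 for probe 1 of Defcr-rs2 and -6.26 for probe 2, or 32.0-fold, 50.3-fold and 76.5-fold lower. The size depended on the scaling: the processed signals as they are gave 121-fold, 157-fold and 239-fold, and 58.9-fold, 76.3-fold and 116-fold once the median over all probes was subtracted. The deleted RNA read higher on day 5 than on day 3 for the same probes, by 2.53, 2.24 and 2.02, and by 1.13, 0.95 and 0.82 in the processed signals as they are. A control level at least 16-fold lower on day 5 than on day 3 was read for 3 of the 23113 probes above background, 0.013%, and all 3 were these members; the limit of 16-fold was chosen after the values were seen. With the processed signals it was read for 38 probes, and for 15 less the median, with these 3 members in both counts. Over all probes above background the median change was -0.0039 in control and 0.03 in deleted RNA with the levels normalised between arrays, and -1.04 and -0.99 in the processed signals.

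For the 7 cryptdin probes, which RNA differed between the days depended on the scaling. With levels normalised between arrays the control differed by -0.46 to 0.29, and the deleted level was higher on day 5 by 1.15 to 1.37. In the processed signals as they are the control was lower on day 5, by -1.76 to -1.21, and the deleted RNA differed by -0.22 to 0.22. Less the median over all probes, the control differed by -0.72 to -0.17 and the deleted RNA by 0.77 to 1.21. Defcr20, for example, had processed signals of 414449 in control and 170080.5 in deleted on day 3, and of 157500.0 and 172000.0 on day 5. Each day had 1 RNA pair, so the difference between day 3 and day 5 cannot be told apart from one between their animals, extracts or slides. Within a day, 1 deleted extract was set against 1 control extract. For cryptdin and cryptdin-related probes alike, the Ascl2 genotype therefore cannot be told apart from other differences between those animals, gene content included.

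Beside the day 5 ratios of the cryptdin-related probes, fibroblast genes also read far higher in the deleted RNA. Col3a1, Col1a1, Col1a2 and Dcn, all fibroblast matrix genes, were at 5.11, 4.81, 4.68 and 4.41 on day 5, and the fibroblast and muscle list of 6 genes had a median of 4.54 with a range from 0.18 to 5.11. Saa3, an acute phase gene, was at 5.28 and S100a9, a neutrophil gene, at 3.95, but the myeloid list of 7 genes that holds S100a9 had a median of 0.46, with a range from 0.09 to 3.95. On day 3 the 4 fibroblast genes were at -1.07, -0.92, -0.74 and -0.31. The part of these cells in the cryptdin-related result was not tested. Of the 11 probes with a day 5 log2 ratio of at least 4, 9 were not well above background on any sort array, the 3 cryptdin-related probes among them.

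**Figure D3:**
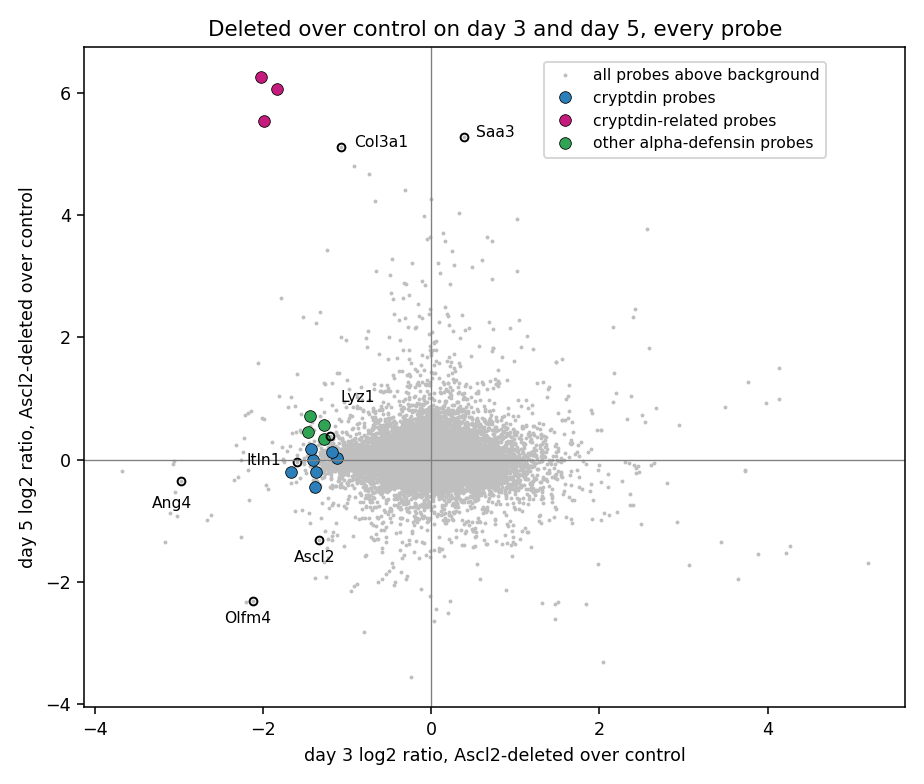
Log2 ratios of deleted over control on day 3 (x axis) and day 5 (y axis) for every probe above background in the deletion comparison, 1 point per probe, with members, other alpha-defensins and 7 reference genes marked. The 3 cryptdin-related probes stand alone at about -2 on day 3 and 5.54 to 6.25 on day 5, and the cryptdin probes lie at -1.66 to -1.12 and near 0.

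The 4 other alpha-defensin probes on the array, which are not members, read like the cryptdins on day 3 and unlike Defcr-rs2 and Defcr-rs10 on day 5. Defa1, Defcr23, Defcr-rs7 and Defcr-rs12 were at -1.28, -1.46, -1.44 and -1.28 on day 3. On day 5 they were at 0.57, 0.45, 0.72 and 0.33, each above 0 on both arrays. Defcr-rs7 (Defa31 in RefSeq) and Defcr-rs12 are named as cryptdin-related genes too, so the day 5 ratios of about 6 were not shared by every probe of that name.

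In the sorted cells the cryptdin-related probes were not well above background in any RNA, on 0 of 4 arrays for GFPhi and 0 of 4 for GFPlo, with processed signals on single arrays between 9.07 and 21.7, so no ratio is given. The 7 cryptdin probes were well above background on all 4 arrays in both populations. Their median ratio of GFPhi over GFPlo was -0.48 in sort 1 and 0.17 in sort 2, against 0.0098 and -0.00061 over all probes above background. Below 0 were 7 of 7 in sort 1 and 0 of 7 in sort 2, against 6907 and 7366 of all 14479 probes above background. Lower in GFPhi on all 4 arrays were 0 of the 7, against 16.2% of all 14428 probes above background. The sort 2 sign was not stable: with the scanner's processed signals the median over the 7 probes was -0.14 in sort 2, and with median centring in place of loess it was -0.46.

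Within sort 1, Defcr21 was at -0.997 with GFPhi RNA in Cy3 and -0.30 with GFPhi RNA in Cy5. Defcr22 was at -0.55 and -0.41, and probe 2 of Defcr3 at -0.57 and -0.37. Defcr4 was at -0.99 and -0.02. These 4 probes read lower in GFPhi with both dye orders, whereas Defcr20 (-1.20 and 0.09), probe 1 of Defcr3 (-1.19 and 0.38) and Defcr6 (-0.88 and 0.16) changed sign with the dye. Within sort 2, Defcr20 was at -0.30 and 0.64, Defcr22 at -0.20 and 0.26, probe 1 of Defcr3 at -0.34 and 0.70, probe 2 at -0.03 and 0.32, Defcr4 at -0.37 and 1.08 and Defcr6 at -0.51 and 0.74. These 6 were below 0 with GFPhi RNA in Cy3 and above 0 with it in Cy5, and Defcr21 was at 0.0020 and 0.39. Means over the sorts ran from -0.23 ± 0.60 for Defcr21 to -0.07 ± 0.61 for Defcr4 (SD, n = 2 sorts), and for each of the 7 probes the SD was larger than the mean.

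The level of some cryptdins also differed between the sorts. With levels normalised between arrays, sort 2 less sort 1 was at log2 differences of -2.19 in GFPlo and -1.35 in GFPhi for Defcr21. Defcr22 differed by -1.49 and -0.99, probe 2 of Defcr3 by -1.02 and -0.40, and Defcr20 by -1.04 and -0.31. Defcr6 differed by -0.46 in GFPlo and 0.01 in GFPhi, and over all probes above background the medians were 0.06 and 0.05. The order of the sorts was thus the same for all 7 probes in GFPlo, and the size ranged from -2.19 to -0.46. In the processed signals less their median over all probes, sort 2 read lower in both populations for all 7 probes, by -3.93 to -1.55 in GFPlo and -3.15 to -1.30 in GFPhi, so the size depended on the scaling, and for Defcr6 in GFPhi so did the sign. Each sort pooled other mice and was hybridised apart, which cannot be told apart here.

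Across all probes, limma at an adjusted p under 0.05 called 0 of 14479 for GFPhi against GFPlo (0%) and 0 of 23113 for deleted against control (0%). Deleted against control was tested on the mean of day 3 and day 5, so the difference between the days adds to its spread. At an unadjusted p under 0.05 there were 664 and 2212 probes. With each comparison fitted alone the counts were 179 and 0. With all 8 arrays in the fit and RNA pairs as random blocks they were 112 and 1427. That fit takes in both arrays of a pair, which share their RNA extracts, so part of its spread is technical. For the day 5 minus day 3 difference, whose spread comes from the sorts alone, limma called 4637 of 14195 probes (32.7%), a background from which nothing is read for the members. That count was 0 with the scanner's processed signals and 0 with median centring.

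Agreement between the arrays of a pair was poorer for the cryptdin probes than for most, and probes of like brightness were not compared. The median gap between the dye-swapped arrays was 0.90 over the 10 member probes on day 3 and 0.74 on day 5. Over all probes above background it was 0.15 and 0.13. The 10 include the cryptdin-related probes, whose arrays lay closer together than those of most cryptdin probes. In sort 1 the median gap was 0.97 over the 7 cryptdin probes against 0.17 over all probes, and in sort 2 0.94 against 0.05. The largest gap was 1.64, for probe 1 of Defcr3 on day 3. For each cryptdin probe in each pair the array with GFPhi or deleted RNA in Cy3 gave the lower ratio, and averaging over the swap removes a dye effect of equal size on both arrays.

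Other secreted products of Paneth cells, from a list chosen with earlier results of these data known, mostly lay below 0 on day 3, as the cryptdins did. Of 12 above background, 10 were below 0, with a median of -1.01, and the defining genes Lyz1, Mmp7, Ang4 and Pla2g2a were above background in both comparisons. Ang4, an angiogenin with antimicrobial activity, was at -2.97, and Itln1, an intelectin that binds microbial sugars, at -1.59. Lyz1 (lysozyme) was at -1.20, and Mmp7, the protease that activates the cryptdin precursors, at -0.82. Reg3b and Reg3g, antibacterial lectins that enterocytes also make, were at 1.97 and 1.64 and were the members of the list above 0. On day 5 the list median was 0.44, with Lyz1 at 0.39 and Mmp7 at 0.69, and in the sorts it was -0.37 and -0.09. Limma called 0 of the list, for the sorts or for the mean of day 3 and day 5, and did not test day 3 alone.

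Genes of Paneth cell fate and niche lay closer to 0. Of 14, 5 were below 0 on day 3, at a median of 0.13. Ephb3, a receptor that holds Paneth cells at the crypt base, was at -1.18, Sox9, a transcription factor needed for Paneth cells, at -0.81, and Wnt3, a Paneth cell signal to the stem cells, at -0.74. Tcf7l2, which encodes a TCF factor, was at 0.40 on day 3. On day 5 the list median was -0.01 with 7 of 14 below 0.

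Several lists of other cell types had day 3 medians away from 0 too. The tuft, B cell and plasma cell, and fibroblast and muscle lists were at 0.90, 0.61 and -0.53. The enteroendocrine and myeloid lists lay nearer to 0, at 0.19 and -0.16. Limma, which tested the mean of both days and not day 3 alone, called 0 of their genes. All 12 cell cycle genes were below 0, with a median of -1.11, a range from -1.29 to -0.80 and Mki67 at -1.22. Crypt base stem cell genes had a median of -0.88 with 7 of 10 below 0 and Olfm4 at -2.12. Goblet cell genes had a median of 0.94 with 3 of 7 below 0, Muc2 at 0.94, Zg16 at 1.90 and Agr2 at -0.32, and all 10 enterocyte genes were above 0 at a median of 0.67, with Sis at 0.31. T cell and intraepithelial lymphocyte genes were above 0 in 8 of 8 with a median of 1.02 and Gzma at 1.80. On day 5 the medians were 0.03 for cell cycle, -0.42 for stem cell, 0.13 for goblet, -0.42 for enterocyte and -0.03 for T cell genes. Pancreatic acinar genes had 3 of 7 above background, between -0.11 and 0.27 on day 3, and their defining genes Cpa1 and Pnlip were not above background. The part of any of these lists in the cryptdin ratios was not tested.

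**Figure D4:**
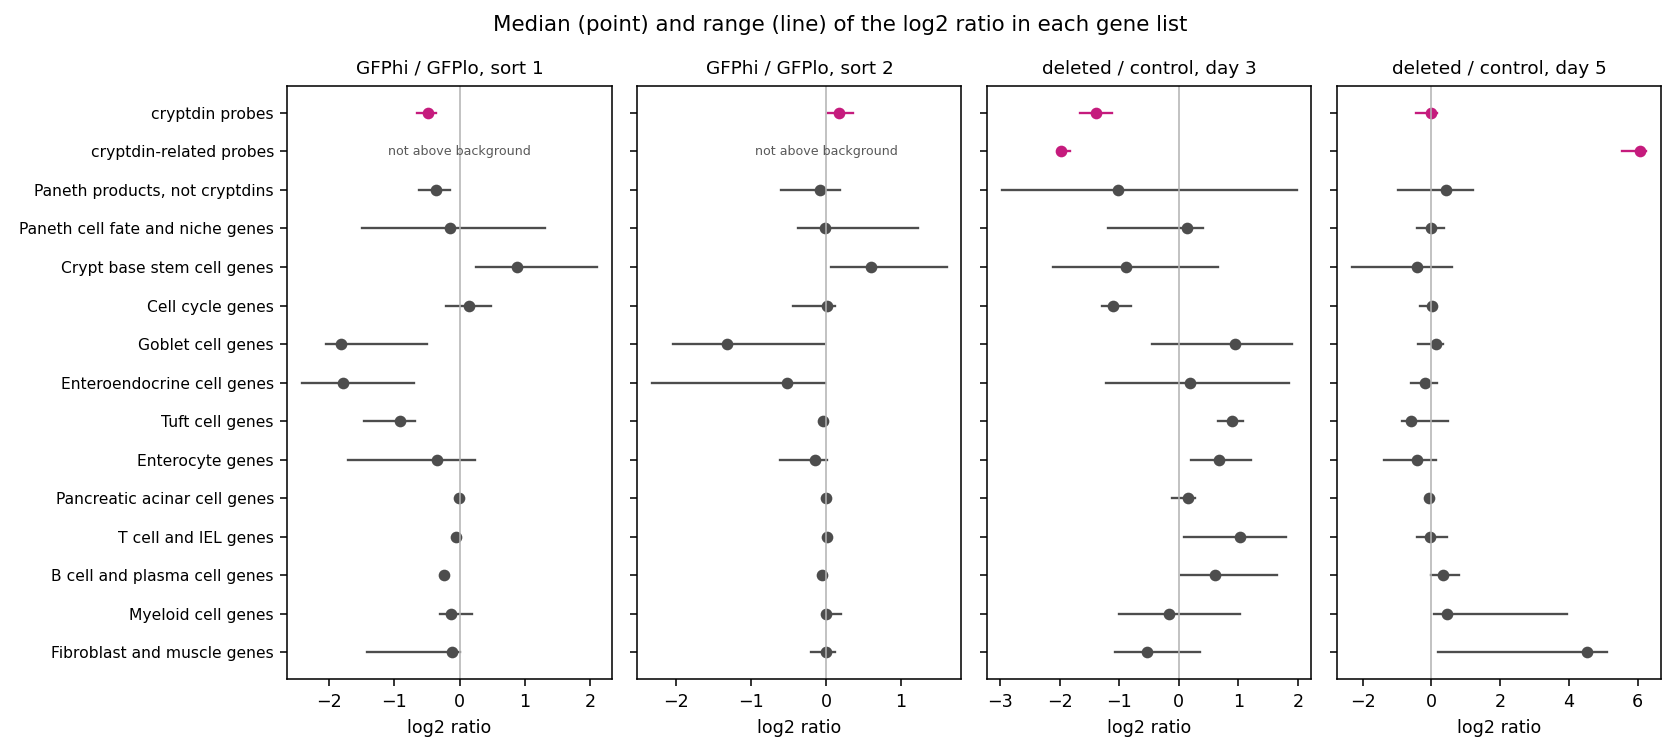
Median (point) and range (line) of the log2 ratio (x axis) for the cryptdin probes, the cryptdin-related probes and 13 gene lists (rows) in each RNA pair (panels), over members above background. On day 3 the cryptdin, cryptdin-related, Paneth product, stem cell and cell cycle medians lie at -0.88 or below, and on day 5 only the cryptdin-related probes and the fibroblast and muscle list have medians above 4.

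Over the 4 RNA pairs, 9207 named genes above background in both comparisons were ranked by the root mean square difference of their ratios from the median over member probes. That median was -0.44 in sort 1 and 0.13 in sort 2, where it includes the 3 cryptdin-related probes that were not above background, and -1.41 on day 3 and 0.08 on day 5. Itln1 was nearest at 0.15, with ratios of -0.37, -0.08, -1.59 and -0.03. Next were Rangrf, Npm3, C4bp, Dusp7, Srm, Vstm2l, Ndc1, Agpat5 and Hmgn2, between 0.18 and 0.22. Over the 7 cryptdin probes alone, all above background, the medians were -0.48, 0.17, -1.39 and -0.0045, a choice made after the data were seen. Itln1 was again the nearest to these, at 0.17, and Ang, another angiogenin gene, was ninth at 0.22.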

How the data were processed

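Members, gene lists and alternatives were chosen with earlier results of these data known. Trizol RNA was amplified linearly during labelling, per the labels' protocols. Agilent Feature Extraction 9.5.3.1 read the arrays, and the tables hold, per the file headers, linear intensity per spot and a log10 ratio (Cy5/Cy3). Log2 ratios in the deposited series matrix match these once turned; how they were centred remains unknown. Annotation came from the day 3 files, since the day 5 files hold values rounded by a spreadsheet.

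Here, normexp with an offset of 50 corrected the background, ratios were loess-normalised within arrays with control spots at weight 0, outlier spots were left out, spots of a probe and then the 2 arrays of a pair were averaged. Loess assumes that most probes at a given brightness do not change. Levels between arrays used Aquantile, with the processed signals as an alternative chosen after the data were seen. All 4 RNA pairs were fitted in limma 3.58.1 (R 4.3.3, statmod 1.5.0), 1 coefficient per comparison, over probes well above background on every array in at least 1 RNA of a comparison; Benjamini-Hochberg, two-sided, threshold 0.05. The script was tested on simulated data. No label ties a deletion pair to single animals, so p values measure the spread between extracts or pools, which may be technical. The deletion coefficient was the mean of day 3 and day 5, so any difference between the days adds to the spread behind its p values. Named genes were the members, up to 4 further alpha-defensins, the 10 nearest genes and up to 4 of each list by day 3 ratio besides Lyz1, Mmp7, Muc2, Olfm4, Mki67 and Sis; Saa3, Dcn, Ang and Agr2 were named after their values were seen. The brightest probe stood for a listed gene. Probe names were matched to RefSeq by accession for 23374 probes.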

Additional observations from a re-analysis of the deposited data

Results flagged for a closer look

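The 3 cryptdin-related probes moved one way on both day 3 arrays and the opposite way on both day 5 arrays. The day 5 minus day 3 log2 ratio was 8.28 for probe 2 of Defcr-rs2, 7.89 for probe 1 of Defcr-rs2 and 7.53 for Defcr-rs10. The difference between the days was not tested for these probes, since each day had 1 RNA pair and the probes were below background in the sorts that give the spread.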

How the results depend on the processing

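Without background subtraction, with saturated spots left out and with alpha-defensin spots left out of the loess (the last chosen after seeing the data), no count of calls moved by over 1.5 times, and the ratio of no member probe changed sign or moved beyond its spread between dyes. No member spot was saturated, so leaving out saturated spots could not move a member ratio. The cryptdin-related median was -1.98 on day 3 and 6.06 on day 5. It was -2.01 and 6.32 with the scanner's processed signals, -2.00 and 6.33 with the series matrix, and -1.91 and 5.80 with the brightest probe of each gene, and -2.12 on day 3 with median centring. The sort 2 median over all member probes, 3 of them not above background there, was 0.13, and -0.41 with median centring; over the 7 cryptdin probes it was 0.17 and -0.46. Of 34 member ratios, 7 changed sign with the scanner's processed signals, 6 with the series matrix and 10 with median centring, all of them in sort 2 or on day 5 among the cryptdins. Probes called were 0 for the sorts, and 1 with the scanner's processed signals, 32 with the series matrix, 179 with each comparison fitted alone and 112 with the random block. Probes called for the deletion were 0, and 1 with the scanner's processed signals and 1427 with the random block. The random block fit takes in both arrays of a pair, so part of its spread is technical. For the day difference, 4637 were called, and 0 with the scanner's processed signals, 0 with median centring, 866 with the series matrix and 7589 with no filter on dim probes. Leaving out RNA pairs gave 0 to 179 calls for the sorts and 0 to 9130 for the deletion, the higher counts where 1 deletion day was left out, so that the spread came from the sorts alone. The member median over both sorts, with the same 3 probes included, was -0.12, with -0.44 from sort 1 and 0.13 from sort 2, and over both days -0.58, with -1.41 from day 3 and 0.08 from day 5; over the cryptdin probes it was -0.16, with -0.48 and 0.17, and -0.70, with -1.39 and -0.0045. The cause of these changes was not tested. Each slide and scan held 1 RNA pair, so a slide block could not be fitted. No paired analysis was possible because the comparisons share no numbered samples. On the sort arrays, signals below background limit the cryptdin-related probes.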
